A study of Homo sapiens with 18 samples.

Results

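The genes described here are the classical and related cadherins (CDH) and the protocadherins (PCDH, with the clustered PCDHA, PCDHB and PCDHG groups), read out by sequencing of polyadenylated RNA in melanoma lines with and without a CRISPR knockout (KO) of ARID2. Members were chosen by symbol alone, as CDH or PCDH followed by a number, with the cluster letters A, B, GA, GB or GC allowed. This gave 87 of the 56629 symbols in the count tables, made up of 23 CDH genes, 11 non-clustered PCDH genes, 14 PCDHA, 18 PCDHB and 21 PCDHG genes. ARID2 is a subunit found in PBAF, one of the SWI/SNF complexes that remodel chromatin. SKmel147, a metastatic melanoma line labelled as NRAS-mutant, was profiled as Par without a construct, as NT with a lentiviral Cas9 and a guide construct, and as 3 lines with those constructs and an ARID2 KO, named KO1.4, KO1.5 and also KO3.20. The BRAF-mutant metastatic line 501mel was profiled as Par without a construct, as NTC with a lentiviral vector for Cas9 and guide together, and as 2 lines with an ARID2 KO in that vector, named KO1.8 and also KO5.2. Par and NT, or Par and NTC, are the controls, and the labels do not spell out NT or NTC. Each of the 9 lines had 2 libraries, 18 in all. The labels leave unsaid whether these were separate cultures and whether a line is a clone. Unless lines are named as replicates, a p-value here sets a difference between lines against the spread between the libraries of a line. That spread may be technical, and it does not hold the variation between lines of the same kind.

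Cadherins are calcium-dependent adhesion molecules that bind the like molecule on a neighbouring cell. Classical cadherins such as CDH1 (E-cadherin), CDH2 (N-cadherin) and CDH3 (P-cadherin) hold the actin cytoskeleton through catenins, and melanocytes use E-cadherin and P-cadherin to contact keratinocytes, a contact that melanoma cells often give up while gaining N-cadherin. The clustered protocadherins lie in 3 arrays side by side on 1 chromosome arm, where each variable first exon has its own promoter, and cells choose among these promoters with the help of CTCF and cohesin. Since the variable exons resemble each other, reads can be shared among members of a cluster, and single clustered genes are uncertain for that reason.

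In the RefSeq promoter windows (GRCh38.p14, 250 bases before to 50 after each gene start) a short word recurred at the alpha and at the beta promoters, and it is shown because each of these genes has a promoter of its own. GTGGCGCT stood on either strand in 13 of 14 PCDHB windows and in 1.15% of all 35116 windows. ATGTCGCT stood in 9 of 11 PCDHA windows and in 0.234% of all windows. Neither word stood in any of the 23 PCDHG windows (0). Both words were picked after the sequences had been seen, and both contain CGCT, which 70% of all windows hold. CGCT itself stood in 14 of 14 PCDHB, 10 of 11 PCDHA and 23 of 23 PCDHG windows. It also stood in 19 of 23 CDH and 9 of 10 PCDH windows. The 23 PCDHG windows outnumber the 21 PCDHG members. All sites below are on the plus strand of chromosome 5, with the word in capitals. The first 4 belong to beta members called higher in the mean of the SKmel147 KO lines (PCDHB14 through NT alone), the next 2 to beta members whose level differed widely between lines, and the last 2 to the alpha members with the highest level in Par.
PCDHB2, chr5:141094530-141094589: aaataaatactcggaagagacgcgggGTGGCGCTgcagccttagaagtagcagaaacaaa
PCDHB3, chr5:141100379-141100438: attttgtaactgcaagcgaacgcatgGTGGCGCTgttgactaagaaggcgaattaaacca
PCDHB10, chr5:141192285-141192344: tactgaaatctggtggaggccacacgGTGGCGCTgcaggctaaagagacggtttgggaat
PCDHB14, chr5:141223249-141223308: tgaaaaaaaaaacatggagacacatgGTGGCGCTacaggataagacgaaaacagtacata
PCDHB15, chr5:141245300-141245359: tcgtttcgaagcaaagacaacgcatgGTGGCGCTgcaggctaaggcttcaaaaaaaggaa
PCDHB16, chr5:141182296-141182355: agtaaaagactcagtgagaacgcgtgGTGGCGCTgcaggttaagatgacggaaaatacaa
PCDHA7, chr5:140834158-140834217: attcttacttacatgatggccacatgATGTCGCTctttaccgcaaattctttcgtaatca
PCDHA5, chr5:140821528-140821587: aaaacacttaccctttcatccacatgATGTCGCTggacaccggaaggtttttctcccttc

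SKmel147 libraries held 21266522 to 35670140 counts and 501mel libraries 16749707 to 20606855. Levels are given as CPM, the usual count scaled to library size, with TMM factors. ARID2 RNA stood at 62.3 to 72.8 CPM in SKmel147 controls against 39.8 to 57.0 CPM in KO libraries, and at 40.9 to 43.2 against 19.8 to 32.0 CPM in 501mel. It was lower in every KO line except KO1.4 by the test (edgeR quasi-likelihood test, log2 fold change −0.25 in KO1.4, adjusted p = 0.228). Of 8 melanocyte lineage markers all had counts in both cell lines, summing to 166 to 263 CPM in SKmel147 controls and 170 to 236 CPM in its KO libraries, mostly from SOX10, and to 5020 to 6190 and 5690 to 6010 CPM in 501mel. PMEL, MLANA, TYR and DCT each averaged under 2 CPM in SKmel147 controls. Of 6 epithelial markers 3 were at 0 in 501mel, and in SKmel147 the sum of 49.4 to 90.6 CPM came almost wholly from CLDN4, with EPCAM at 0.0395 CPM in controls.

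The control lines of the 2 melanomas used almost separate sets of cadherins. SKmel147 controls carried CDH2 at 177 and 211 CPM in Par and at 165 and 138 CPM in NT, whereas 501mel had no CDH2 count in any of its 8 libraries. Taking the limit that a count of 0 allows over the 4 501mel controls (3 counts, 0.0421 CPM), CDH2 was at least 4110-fold higher in SKmel147 controls. CDH3 showed the opposite pattern. It stood at 99.2 and 91.8 CPM in 501mel Par and at 88.6 and 80.4 CPM in NTC, against 0 counts in the 4 SKmel147 controls and a single count in 1 KO1.5 library. CDH3 was therefore at least 3480-fold higher in 501mel controls.

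Other members split along the same divide between the cell lines. CDH13, a cadherin anchored to the membrane by a lipid and lacking the catenin-binding tail, stood at 93.0 ± 22.5 CPM (SD, n = 2 lines) in SKmel147 controls and at 0.0149 CPM in those of 501mel. CDH19, which marks the neural crest and Schwann cell lineage, stood at 29.7 ± 1.39 CPM in 501mel controls and at 1.25 ± 0.38 CPM in those of SKmel147. CDH7, a close relative, stood at 5.81 ± 1.35 CPM in 501mel controls and at 0.0490 CPM in SKmel147. CDH24 was shared, at 15.5 ± 0.91 CPM in SKmel147 and 6.32 ± 0.12 CPM in 501mel controls. CDH1 averaged 0.457 CPM in 501mel controls and had 19 counts in all 10 SKmel147 libraries together. CDH5 of endothelium and CDH15 of muscle had at most 6 counts in any library and were below the filter in both cell lines.

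Per kilobase of exon, CDH2 led in SKmel147 controls at 35.0 CPM per kb, followed by CDH13 at 8.32 and CDH24 at 4.15. In 501mel controls CDH3 led at 14.4 CPM per kb, followed by CDH19 at 4.33 and CDH24 at 1.69. Among non-clustered protocadherins, PCDH1 and PCDH17 stood level in SKmel147 controls, at 1.52 and 1.51 CPM per kb. The highest in 501mel was PCDH9 at 0.0928 CPM per kb. These orders compare levels within 1 cell line and depend on annotated exon lengths.

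The alpha and beta protocadherins had next to no counts in 501mel, whereas the gamma genes were read in both cell lines. In SKmel147 control libraries the alpha members summed to 19.3 to 26.9 CPM and the beta members to 39.8 to 76.4 CPM. The 501mel libraries held 0 to 8 alpha and 0 to 10 beta counts. PCDHGC3 alone gave 34.1 ± 7.68 CPM in SKmel147 controls and no count in 501mel, a difference of at least 809-fold. The other gamma genes summed to 10.5 ± 1.61 CPM (SD, n = 2 lines) in SKmel147 controls and to 2.68 ± 0.54 CPM in those of 501mel. PCDHGA12 stood higher in 501mel controls (1.02 against 0.0855 CPM). PCDHGA8 averaged 0.204 against 0.0826 CPM, but it had at most 6 counts in any control library. Its control libraries overlapped between the cell lines, and it was not among the members tested. Of 56 members tested between the controls, 55 passed the test, 49 higher in SKmel147 and 6 higher in 501mel, where 80.7% of all genes tested passed (43.1% and 37.6%). The 6 were CDH1, CDH3, CDH7, CDH19, PCDH15 and PCDHGA12, and the member that did not pass was PCDH7 (adjusted p = 0.0593). Only 4 members passed the low-count filter in both cell lines, so most entered this test through the cell line where they are high, and nothing is read from the count.

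**Figure D1:**
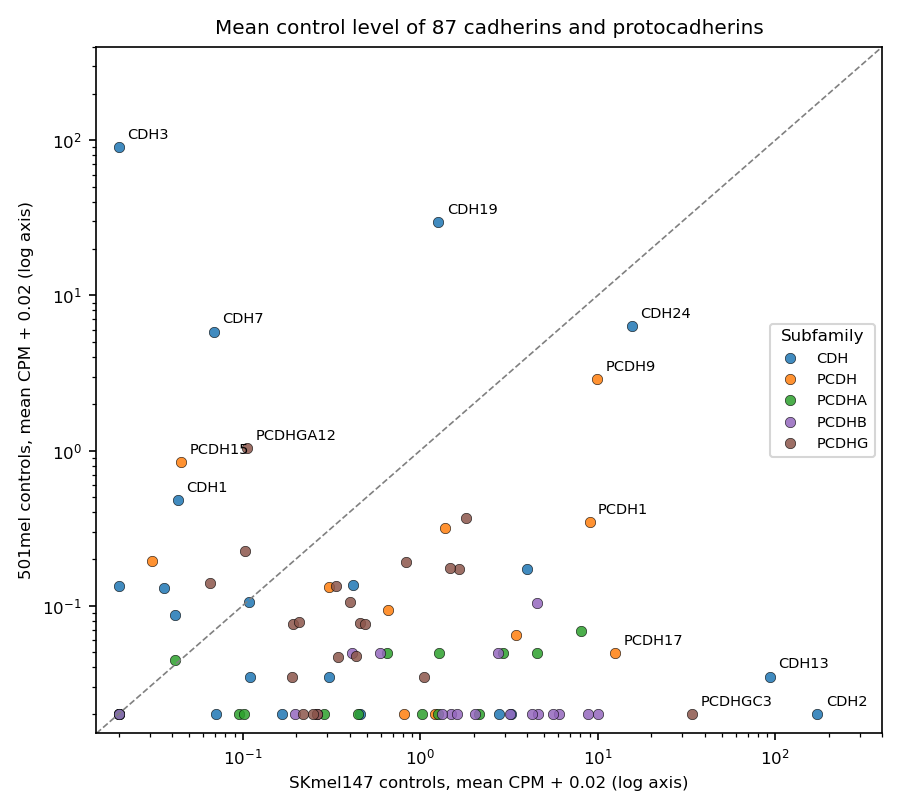
Mean level in the control libraries of 501mel (vertical) against SKmel147 (horizontal) for each of the 87 members, in CPM on log axes with 0.02 added so that 0 can be drawn. Colours mark the subfamilies and the dashed line marks equal level. CDH2, CDH13 and PCDHGC3 lie at the lower right, CDH3, CDH7 and CDH19 at the upper left, and nearly all clustered members lie along the bottom.

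In SKmel147, 58 of the 87 members passed the low-count filter (10 CDH, 9 PCDH, 9 PCDHA, 17 PCDHB and 13 PCDHG). Against the controls, 14 of the 58 differed in the mean of the KO lines, 7 higher and 7 lower, beside 17.7% of all 18361 genes tested (8.07% higher and 9.6% lower). Most of the CDH and non-clustered PCDH genes that passed were lower (6 of 8), and most of the clustered genes that passed were higher (5 of 6). The median log2 fold change was −0.22 over the tested CDH genes, 0.29 over the PCDHB genes and −0.01 over all genes. This split did not hold in every line. In KO3.20 singly 0 CDH and 0 non-clustered PCDH genes were called lower, and the CDH median was 0.12. Between the controls themselves (NT minus Par) the PCDHB median was −0.44. No member was called when counts were summed per line and lines served as replicates (edgeR quasi-likelihood test, smallest adjusted p = 0.191), where 11 of 64 members had an unadjusted p under 0.05 and 13 of 19729 genes were called. With libraries as replicates, DESeq2 called 14 members.

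Among the classical cadherins, CDH6, known from kidney and neural crest, was lower in KO lines. It stood at 2.64 and 4.22 CPM in Par, 2.24 and 1.95 in NT, 0.85 and 0.65 in KO1.4, 0.56 and 0.51 in KO1.5, and 1.90 and 1.59 in KO3.20. Every KO library lay below every control library, though KO3.20 came close to NT. The log2 fold change of the KO mean was −1.58 ± 0.20 (SE, adjusted p = 2.69e-04), and KO3.20 did not pass singly (−0.61).

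CDH11, the osteoblast cadherin of mesenchymal cells, did not follow the KO label. It stood at 4.60 and 4.35 CPM in Par, 2.31 and 1.59 in NT, 1.13 and 1.27 in KO1.4, 0.80 and 0.55 in KO1.5, and 3.12 and 3.72 in KO3.20. KO3.20 was above NT, and the control lines themselves differed by −1.20 ± 0.26 on the log2 scale (adjusted p = 0.0159). The KO mean was −1.06 ± 0.18 (adjusted p = 0.00162), against NT alone it was −0.46 and did not pass (adjusted p = 0.232), and without KO1.5 it was −0.53 and did not pass (adjusted p = 0.0818).

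CDH2, the main cadherin of this cell line, changed little. KO libraries ran from 131 to 155 CPM and control libraries from 138 to 211, so the groups overlapped. The log2 fold change of −0.26 ± 0.08 passed narrowly (adjusted p = 0.0431), fell to −0.08 against NT alone (adjusted p = 0.678), and missed the threshold when any of 8 single libraries was left out (adjusted p 0.0586 to 0.155). CDH13 did not pass, at −0.09 ± 0.07 (adjusted p = 0.438), but stood at 117 and 101 CPM in NT against 77.8 and 76.5 CPM in Par, and NT minus Par was 0.50 ± 0.11 (adjusted p = 0.0170).

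CDH4 (R-cadherin) stood at 1.92 to 3.01 CPM in KO libraries and 2.54 to 4.86 in controls, a log2 fold change of −0.63 ± 0.17 (adjusted p = 0.0262). Its call was also lost when any of 8 single libraries was left out (−0.45 to −0.66), and against Par alone it was −0.35. CDH19 went the other way. It stood at 1.74 and 1.29 CPM in Par, 0.88 and 1.08 in NT, 2.64 and 3.13 in KO1.4, 2.07 and 1.65 in KO1.5, and 2.51 and 3.29 in KO3.20. KO1.5 reached into the range of Par, and the mean log2 fold change was 1.03 ± 0.19 (adjusted p = 0.00293). Against Par alone it was 0.71 and did not pass (adjusted p = 0.0539). Of the single lines, KO1.4 and KO3.20 passed and KO1.5 did not (0.61).

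Of the non-clustered protocadherins, PCDH1, an adhesion molecule of epithelium, was higher in KO lines. It stood at 7.72 and 9.77 CPM in Par, 7.77 and 10.7 in NT, 22.6 and 21.7 in KO1.4, 12.7 and 13.2 in KO1.5, and 33.1 and 24.8 in KO3.20. All 6 KO libraries were above all 4 controls, and the control lines lay together. The log2 fold change was 1.17 ± 0.13 (adjusted p = 9.82e-05). KO1.4 and KO3.20 passed singly at 1.30 and 1.69 and KO1.5 did not.

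PCDH19 and PCDH20 were lower in the mean of the KO lines at low levels. Both passed singly in KO1.4 and KO1.5, and neither did in KO3.20 (PCDH19 −1.06, PCDH20 −1.09). PCDH19, the X-linked gene known for an epilepsy of girls, stood at 1.96 and 1.20 CPM in Par, 0.92 and 0.68 in NT, 0.19 and 0.24 in KO1.4, 0.15 in both libraries of KO1.5, and 0.46 and 0.63 in KO3.20. Every KO library was below every control, at a log2 fold change of −2.11 ± 0.28 (adjusted p = 4.32e-04). PCDH20 had 32 and 16 counts in Par, 7 and 20 in NT, 4 and 2 in KO1.5, 7 and 11 in KO3.20, and 0 in both KO1.4 libraries. KO1.4 was thus at least 10.7-fold lower than the controls (limit of 3 counts over both libraries), and the mean of the KO lines passed the test (adjusted p = 0.00191), with a fitted value that rests partly on the line at 0.

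**Figure D2:**
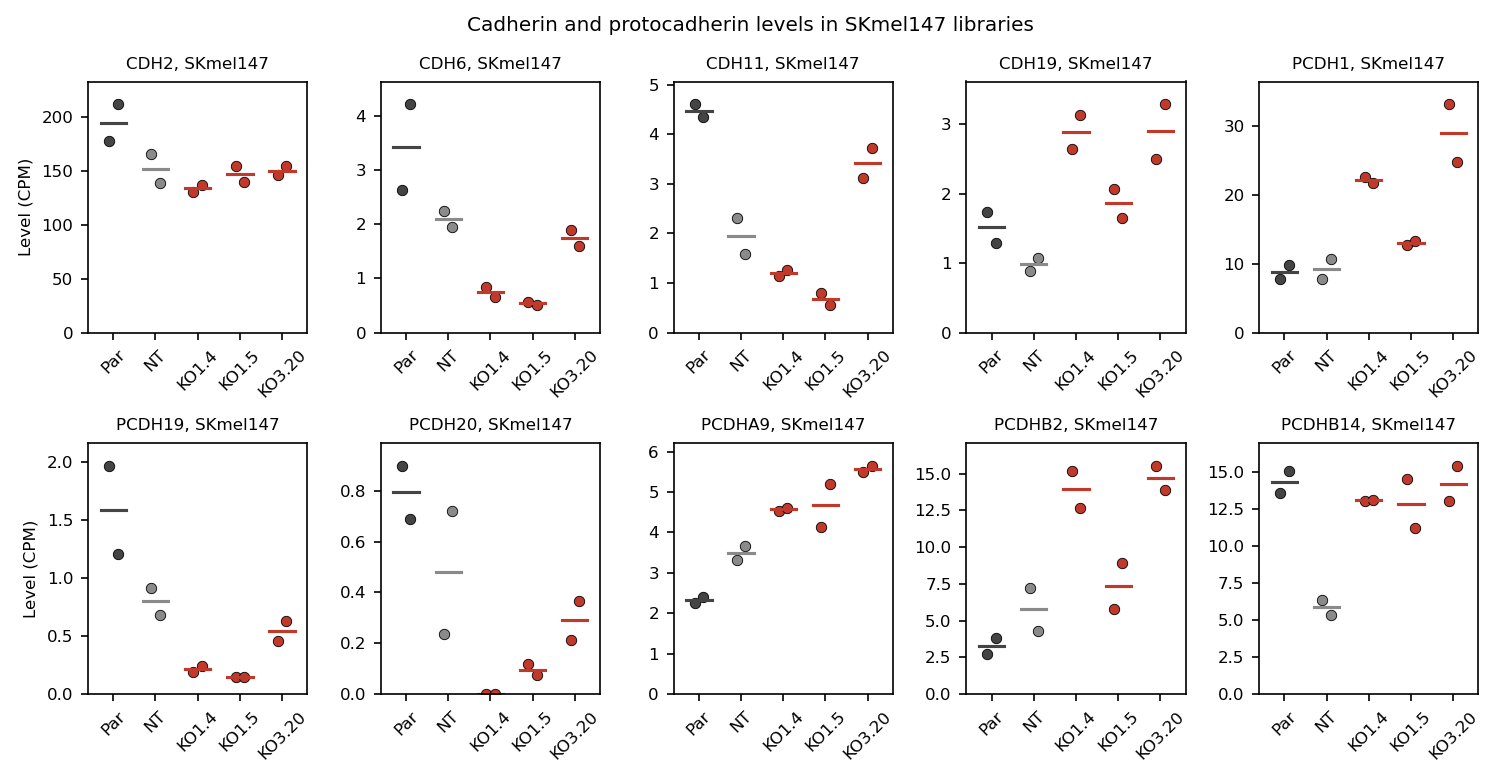
Level in CPM (vertical, each panel from 0) of 10 members in every SKmel147 library, by line (horizontal). Points are the 2 libraries of a line and short bars their mean, with Par in dark grey, NT in light grey and KO lines in red. PCDH1, PCDHA9, CDH6 and PCDH19 separate KO from control libraries, while CDH11 and PCDHB14 differ between Par and NT.

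In the clustered genes of SKmel147, the alpha sum stood at 22.6 ± 0.73 CPM in the control lines (SD, n = 2 lines). In the KO lines it was 28.4 ± 3.55 CPM (n = 3), and the groups overlapped. PCDHAC1 and PCDHAC2, also of the alpha cluster, are outside the symbol rule and this sum. PCDHAC2 went the other way, at 1.36 to 2.16 CPM in control libraries and 0.118 to 1.13 CPM in KO libraries. For PCDHAC1 the groups overlapped. The beta sum stood at 62.5 and 76.4 CPM in Par, at 51.8 and 39.8 CPM in NT, while KO libraries held 70.7 to 80.6 CPM. KO libraries lay within the range of Par or just above it, and NT was lower than all of them. The gamma sum was 44.6 ± 9.28 CPM in controls and 46.0 ± 6.90 CPM in KO lines, of which PCDHGC3 held 70.1% to 77.3% in each line. PCDHGC3 was at −0.02 ± 0.10 in the mean of the KO lines (adjusted p = 0.899). In the mean of the KO lines 0 of the 13 gamma genes tested were called (edgeR quasi-likelihood test). There 3 had an unadjusted p under 0.05, and DESeq2 called 0. Singly, PCDHGB2 was called higher in KO1.5 (0.81), and PCDHGA10 (0.79) and PCDHGB7 (1.17) in KO3.20.

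PCDHA9 was the 1 member called with the same sign in each of the 3 SKmel147 KO lines, beside 3.39% of all genes tested (1.58% higher and 1.8% lower). It stood at 2.25 and 2.41 CPM in Par, 3.33 and 3.67 in NT, 4.53 and 4.61 in KO1.4, 4.15 and 5.21 in KO1.5, and 5.50 and 5.65 in KO3.20. All KO libraries were above all controls, at log2 fold changes of 0.68 ± 0.17, 0.71 ± 0.17 and 0.97 ± 0.16 by line. The 3 comparisons share the same controls. Against NT alone the mean of the KO lines was 0.49 and did not pass (adjusted p = 0.0794).

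The counts of this gene carry a further limit. In SKmel147 all 9 PCDHA members and 9 of 13 PCDHB members with a mean of at least 10 counts had an even count in every library, as had 2.87% of the 17113 genes at that level, so their counts move in steps of 2. With such counts divided by 2 (an alternative added after the data were seen), PCDHA9 stayed called in the mean of the KO lines at 0.79 (adjusted p = 0.00530) but not in KO1.4, and no member was then called in all 3 lines. Levels of these genes cannot be set against other genes for that reason.

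PCDHB2 had the highest KO value of the 4 beta genes that were called higher. It stood at 2.75 and 3.79 CPM in Par, 7.20 and 4.32 in NT, 15.2 and 12.7 in KO1.4, 5.80 and 8.94 in KO1.5, and 15.5 and 13.9 in KO3.20. KO1.4 and KO3.20 were above all controls and KO1.5 overlapped NT. The log2 fold change was 1.41 ± 0.18 (adjusted p = 3.30e-04).

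PCDHB3, PCDHB10 and PCDHB14 passed at smaller sizes. PCDHB3 stood at 1.12 to 1.49 CPM in controls and 1.83 to 3.68 CPM in KO libraries (0.79 ± 0.19, adjusted p = 0.0131), though against NT alone (adjusted p = 0.0721) or without KO1.4 (adjusted p = 0.0787) it did not pass. PCDHB10 was at 0.50 ± 0.12 (adjusted p = 0.0140), and 0.28 against Par alone, which did not pass. PCDHB14 stood at 13.6 and 15.1 CPM in Par, 6.38 and 5.33 in NT and 11.2 to 15.4 in KO libraries. Its KO value of 0.55 ± 0.11 therefore rests on NT, and against Par alone it was −0.10 (adjusted p = 0.675). PCDHB6 was lower, at 0.0367 to 0.309 CPM in KO libraries and 0.129 to 1.15 CPM in controls (−2.00 ± 0.49, adjusted p = 0.0162), and it was not called against Par alone (−1.26) or without KO1.5 (−1.34).

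Beta genes with even counts and the other beta genes cannot be ranked against each other as deposited. With even counts divided by 2, PCDHB9 led the beta genes in all 5 lines, controls included, with 18.3% to 26.6% of the beta sum. That order depends on the division, since PCDHB9 itself was not halved, and as deposited PCDHB14, PCDHB12 or PCDHB2 led, by line. PCDHB3 and PCDHB8, even in most SKmel147 libraries, were not halved either. PCDHA7 led the alpha genes in all 5 lines with 33.7% to 37.4%, where every tested member had even counts. PCDHB15 stood at 6.12 and 5.91 CPM in KO3.20 and at 0.407 to 2.08 CPM in all other libraries. PCDHB16 stood at 8.17 and 6.94 CPM in KO1.4 and 6.76 and 6.63 CPM in Par, against 1.23 to 3.73 CPM elsewhere. Across the 5 lines the ratio of the highest to the lowest line mean (with 0.1 CPM added) had a median of 2.27 over the 17 tested beta genes and 2.29 over the 13 gamma genes, beside 1.48 over all genes.

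**Figure D3:**
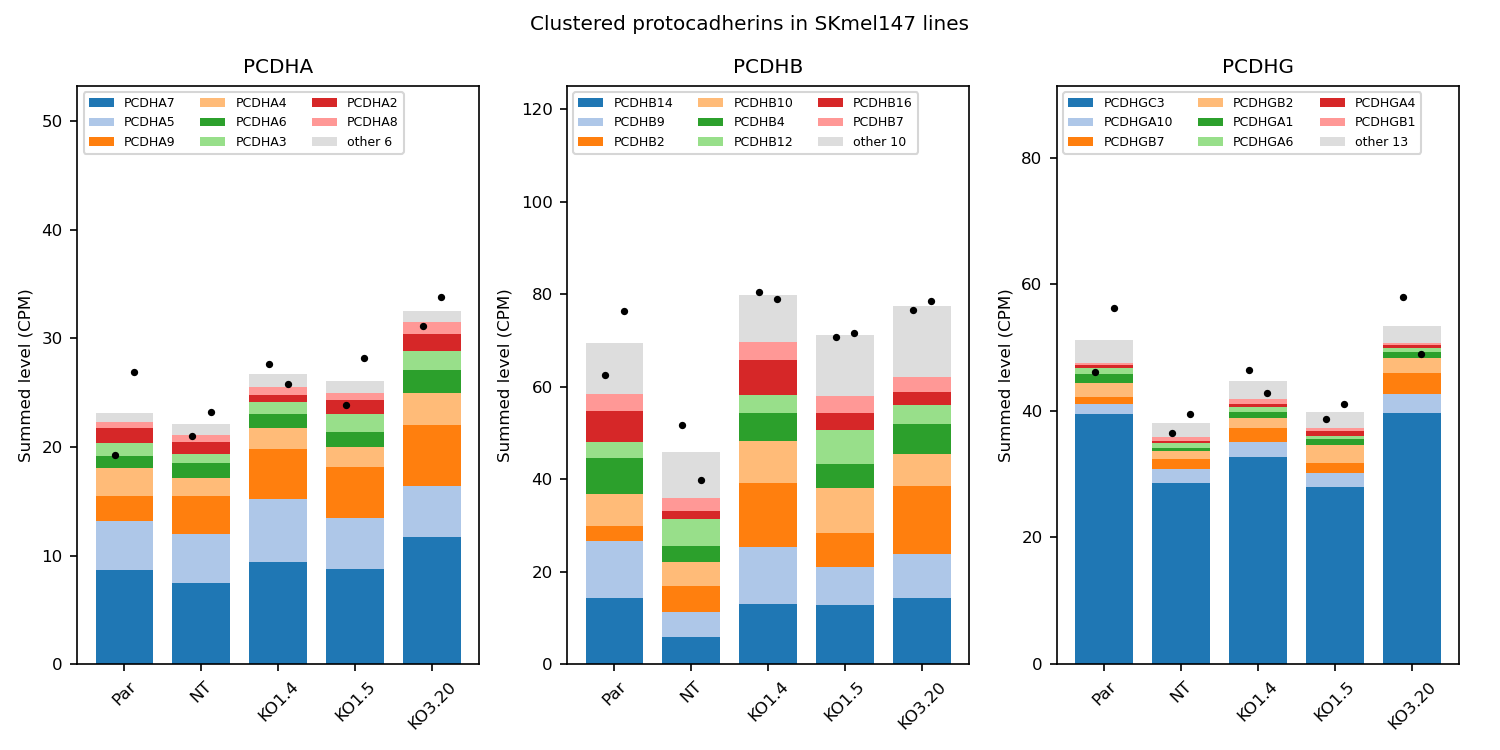
Summed level in CPM (vertical) of the PCDHA, PCDHB and PCDHG members in each SKmel147 line (horizontal), as stacked line means of the 8 highest members and the rest. Black points are the sums of the 2 libraries. The beta sum is lowest in NT, and PCDHGC3 fills most of the gamma sum. Heights of genes with even counts and of other genes are not comparable.

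NT differed from Par in 10 of the 58 members, beside 9.27% of all genes (3.82% higher and 5.45% lower). The 3 that were higher in NT were CDH10, CDH13 and PCDHB12, and the 7 that were lower were CDH11, PCDH9 and 5 beta genes, PCDHB4, PCDHB9, PCDHB14, PCDHB16 and PCDHB17. PCDHB16 was lower by 1.86 on the log2 scale (−1.86 ± 0.29), and PCDHB17, whose counts move in steps of 2, had 10 counts in each Par library and 0 in both NT libraries.

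KO1.4 called 11 (7 higher and 4 lower, beside 8.77% of all genes, 3.97% higher and 4.8% lower), KO1.5 called 10 (5 and 5, beside 11.2%, 5.42% higher and 5.77% lower) and KO3.20 called 10 (all higher, beside 12.6%, 6.49% higher and 6.11% lower). CDH10, a neural cadherin, was called in KO1.5 alone, where it stood at 2.13 and 1.39 CPM against 0.129 to 0.72 CPM in all other libraries (2.29 ± 0.34). PCDH12, an endothelial protocadherin, was called in KO3.20 alone, at 1.53 and 2.52 CPM (1.38 ± 0.31). The difference between single KO lines was not tested.

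**Figure D4:**
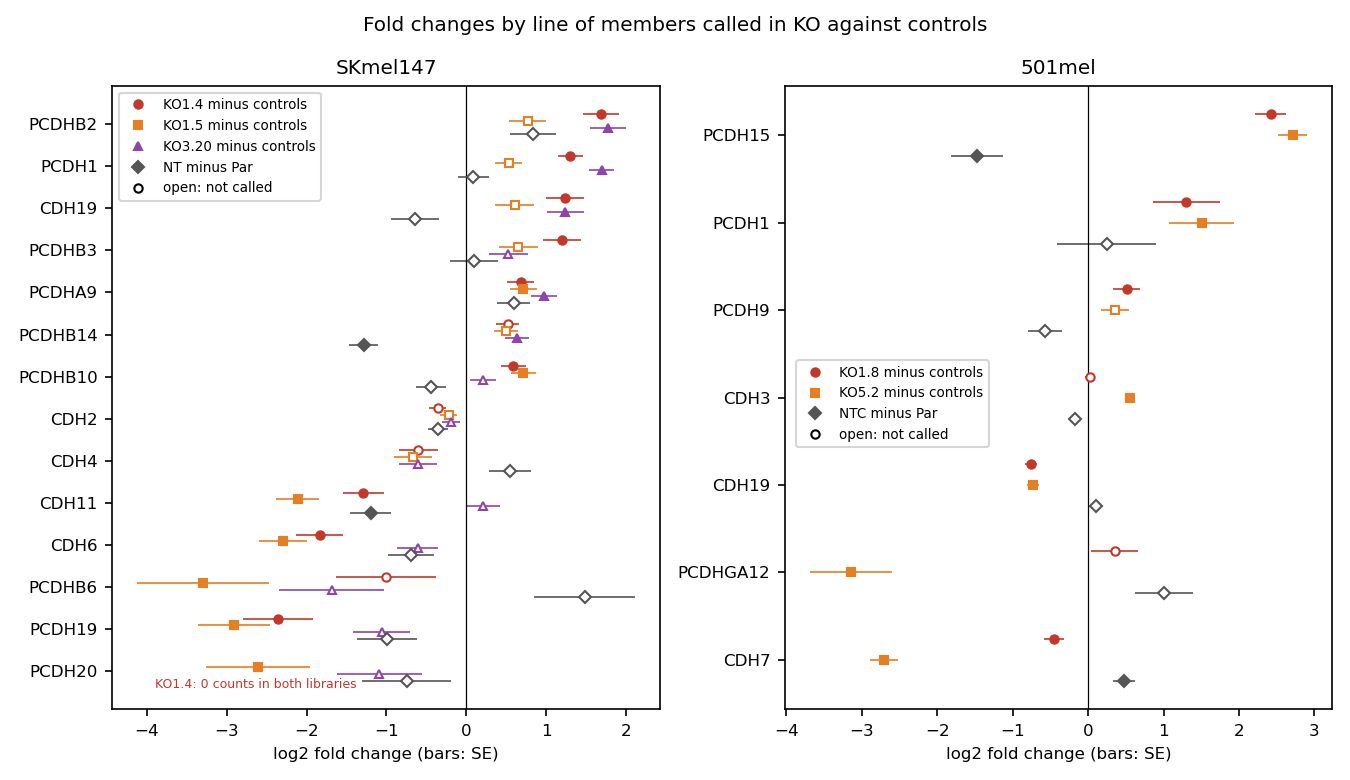
Log2 fold change (horizontal, bars SE) by line for the 14 members called in SKmel147 and the 7 called in 501mel in the mean of the KO lines. Coloured symbols are single KO lines minus the controls, grey diamonds are the transduced control minus Par, and open symbols did not pass the test. The KO symbols of CDH19 lie right of 0 in SKmel147 and left of 0 in 501mel, and those of PCDH1 lie right of 0 in both. KO1.4 is written out for PCDH20, where it had 0 counts.

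In 501mel only 9 members passed the filter, 5 of them CDH genes (CDH1, CDH3, CDH7, CDH19 and CDH24), with PCDH1, PCDH9, PCDH15 and PCDHGA12. In the mean of the KO lines 7 of the 9 differed from the controls, 4 higher and 3 lower, beside 51.3% of all 16230 genes tested (24.7% higher and 26.5% lower). CDH7, CDH19, PCDH1 and PCDH15 were called with 1 sign in both KO lines, beside 24% of all genes (12.3% higher and 11.7% lower). KO1.8 alone called 5, 3 higher and 2 lower, beside 40.2% of all genes (20.1% in each direction). KO5.2 alone called 6, 3 higher and 3 lower, beside 53.5% (26.5% higher and 27% lower). NTC differed from Par in 2 of the 9, CDH7 higher and PCDH15 lower, beside 15.7% of all genes (6.77% higher and 8.93% lower). With counts summed per line and lines as replicates none was called (edgeR quasi-likelihood test, smallest adjusted p = 0.254), when 3 of 12 members (CDH19, PCDH1 and PCDH15) had an unadjusted p under 0.05 and no gene of 17114 was called. With libraries as replicates, DESeq2 called 6.

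CDH19 was lower in both KO lines to the same extent. It stood at 28.0 and 29.5 CPM in Par, 28.4 and 33.1 in NTC, 17.2 and 18.03 in KO1.8, and 17.2 and 18.8 in KO5.2. The groups did not overlap and the spread within each was small, at a log2 fold change of −0.74 ± 0.07 (adjusted p = 3.90e-07). CDH7 stood at 4.80 and 4.91 CPM in Par, 6.96 and 6.57 in NTC, 4.11 and 4.25 in KO1.8, and 0.95 and 0.80 in KO5.2. It was below the controls in both KO lines, slightly in KO1.8 (−0.45 ± 0.14, adjusted p = 0.0156) and far in KO5.2 (−2.70 ± 0.19). The control lines differed in it by 0.48 ± 0.15 (adjusted p = 0.0467).

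CDH3, the main classical cadherin of 501mel, was higher in KO5.2 alone. It stood at 131 and 134 CPM in KO5.2, 92.5 and 89.7 in KO1.8, and 80.4 to 99.2 in controls. KO1.8 lay inside the control range (0.02), KO5.2 was at 0.56 ± 0.05, and the KO mean of 0.29 ± 0.04 (adjusted p = 8.58e-05) rests on KO5.2. CDH24 (−0.25 ± 0.12, adjusted p = 0.0962) and CDH1 (−0.18 ± 0.41, adjusted p = 0.744) did not pass.

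PCDH15, a protocadherin of hair-cell tip links, changed most. It stood at 1.17 and 1.24 CPM in Par, 0.48 and 0.39 in NTC, 3.95 and 3.82 in KO1.8, and 4.83 and 4.68 in KO5.2. Both KO lines were above Par as well as NTC, although the control lines differed by −1.47 ± 0.35 (adjusted p = 0.00978). The log2 fold change was 2.56 ± 0.17 (adjusted p = 2.49e-08).

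PCDH1 was higher in 501mel too, at a far lower level than in SKmel147. It stood at 0.12 to 0.48 CPM in controls and 0.62 to 0.97 CPM in KO libraries, without overlap (1.404 ± 0.37, adjusted p = 0.00564). PCDH9 was at 0.44 ± 0.15 (adjusted p = 0.0276), and missed the threshold by DESeq2 (adjusted p = 0.120), against Par alone (0.15), without KO1.8 (0.36) and when any of 4 single libraries was left out (0.30 to 0.43). PCDHGA12 stood at 1.30 and 1.16 CPM in KO1.8, 0.158 and 0.0503 in KO5.2 and 0.473 to 1.52 in controls. It was low in KO5.2 alone, and the KO mean of −1.397 ± 0.37 became 0.35 without KO5.2. The gamma genes of 501mel together had 36 to 63 counts in the control libraries, 114 and 110 in KO1.8 and 47 and 41 in KO5.2.

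**Figure D5:**
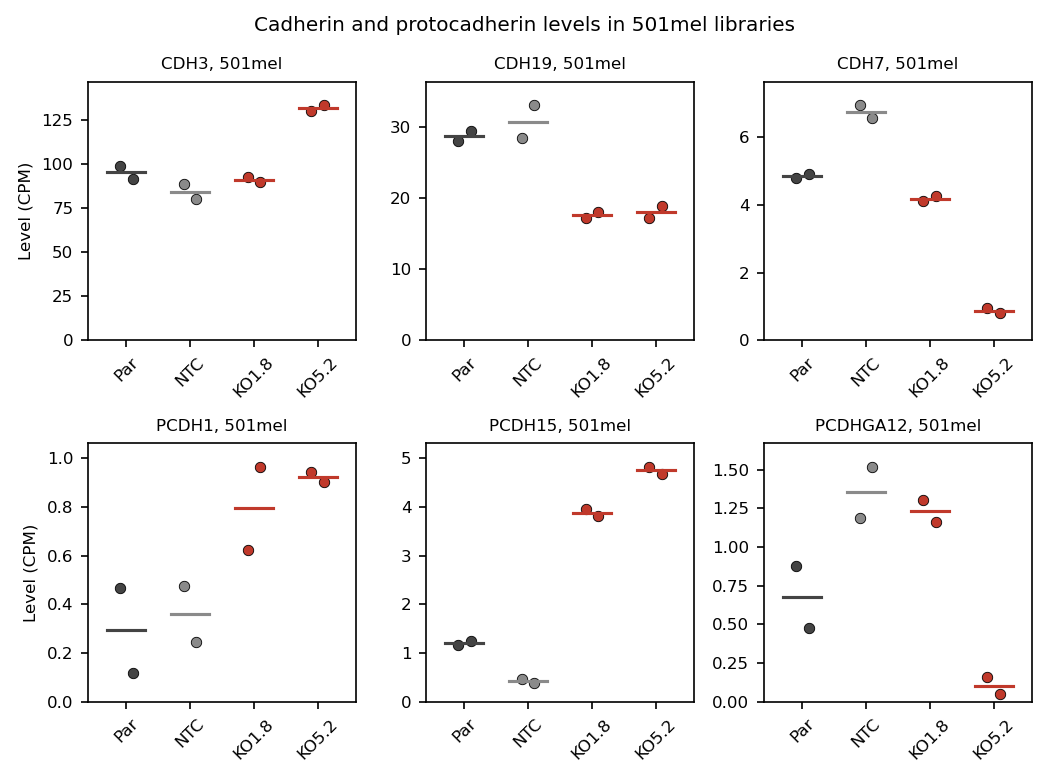
Level in CPM (vertical, each panel from 0) of 6 members in every 501mel library, by line (horizontal). Points are the 2 libraries of a line and short bars their mean, with Par in dark grey, NTC in light grey and KO lines in red. CDH19 and PCDH15 separate both KO lines from both controls, while CDH3 and PCDHGA12 stand apart in KO5.2 alone.

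Only 4 members passed the filter in both cell lines, so the KO effect could be compared for CDH19, CDH24, PCDH1 and PCDH9 alone. CDH19 moved in opposite directions, and the difference (SKmel147 minus 501mel) was 1.76 ± 0.18 on the log2 scale (adjusted p = 2.38e-06), beside 29.4% of all 14681 genes passing (14.9% higher and 14.5% lower). PCDH1 rose in both cell lines, and its difference of −0.23 ± 0.40 did not pass (adjusted p = 0.708). The SE leaves room for a sizeable difference in either direction. CDH24 (0.55 ± 0.26, adjusted p = 0.124) and PCDH9 (−0.37 ± 0.22, adjusted p = 0.223) did not pass. CDH24 was called with no filter (0.55, adjusted p = 0.0249), with a GC and length correction (0.69, adjusted p = 0.00485, and 0.00661 with the replicate block) and without NT replicate 2 (0.82, adjusted p = 0.00566). PCDH9 was called without Par replicate 2 of SKmel147 (−0.51, adjusted p = 0.0433). With lines as replicates the CDH19 difference was not called (smallest adjusted p = 0.119 over the 4 members, edgeR quasi-likelihood test), while CDH19 and CDH24 had an unadjusted p under 0.05.

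Members on chromosome 5, 60 of the 87, lay among genes with a median log2 fold change of 0.01 in SKmel147 and −0.02 in 501mel. The chromosome 16 median, for 8 CDH genes, was −0.01 and −0.02. Genes of chromosome 13, home of PCDH9, PCDH17 and PCDH20, had a median of 0.16 in SKmel147 KO lines and 0.18 in those of 501mel. Their median was 0.39 for NT minus Par and −0.18 for NTC minus Par. The part of these shifts in the PCDH9 value was not tested. On chromosome 20, home of CDH4, the median was −0.06 in SKmel147 KO lines and −0.28 in KO3.20 singly. The part of that shift in the CDH4 value was not tested either. Endothelial markers summed to 1.56 to 13.5 CPM in SKmel147 controls and 0.80 to 1.94 CPM in KO libraries, with TIE1 at 12.8 and 9.03 CPM in Par and 0.373 and 1.01 CPM in NT, and with CLDN5 and PECAM1 under 0.1 CPM on average in both groups. Of 5 fibroblast markers 1 was at 0 in SKmel147, and their sum stood at 9.36 to 11.6 CPM in controls and 12.9 to 18.4 CPM in KO libraries. COL1A1, a collagen chain, stood at 1.43 to 3.40 CPM in controls and 5.67 to 7.83 CPM in KO libraries (1.67 ± 0.21, adjusted p = 2.71e-04). The epithelial keratin KRT14 stood at 0.559 to 0.972 and 1.57 to 2.55 CPM (1.38 ± 0.19, adjusted p = 4.25e-04). Of 3 fibroblast and 2 epithelial markers tested in SKmel147, only COL1A1 and KRT14 were called. CLDN4 averaged 70.5 CPM in control lines and 60.9 CPM in KO lines, and LUM 8.23 and 8.76 CPM, each with overlap. In 501mel COL1A1 was called lower (−1.03 ± 0.37), as was ESRP1 (−0.63 ± 0.12), the 1 epithelial marker tested there. The part of these markers in the member values was not tested.

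The catenins and plaque proteins that bind cadherin tails changed in both directions. In SKmel147 12 of 14 listed genes were tested, 5 higher and 3 lower, beside 17.7% of all genes. JUP (plakoglobin, which links cadherins of both junction types) stood at 3.82 and 3.87 CPM in Par, 1.09 and 1.41 in NT and 0 to 0.856 in KO libraries, below every control (−3.19 ± 0.44, adjusted p = 5.36e-04). Its size depends on a library at 0, and leaving out KO1.4 replicate 1 gave −4.96. CTNNA2 (neural alpha-catenin) stood at 10.0 ± 3.93 CPM in control lines and 20.2 ± 1.38 CPM in KO lines (1.07 ± 0.10). In 501mel 10 were tested, 4 higher and 5 lower, beside 51.3% of all genes. CTNND2 (delta-catenin) fell from 7.93 ± 2.02 to 0.548 ± 0.275 CPM (−3.91 ± 0.17, adjusted p = 1.93e-10), CTNNA2 rose on the KO mean (1.60 ± 0.24, called in KO5.2 only of the single lines), and CTNNA1 rose from 247 ± 39.4 to 386 ± 80.7 CPM (0.64 ± 0.04). The list medians were −0.05 and −0.15, beside −0.01 over all genes in each cell line.

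A list of 21 further genes held mostly more distant cadherin relatives. It also held PCDHAC1, PCDHAC2 and PCDH11X, protocadherins that the symbol rule does not take, and the receptor RET. In SKmel147 18 of the 21 were tested, 2 higher and 5 lower, beside 17.7% of all genes. FAT3, a giant cadherin of neurons, stood at 3.23 to 8.18 CPM in controls and 0.33 to 1.01 CPM in KO libraries (−3.11 ± 0.20, adjusted p = 2.06e-06). CLSTN2, a calsyntenin, stood at 6.21 to 15.4 and 0.516 to 3.18 CPM (−2.80 ± 0.22). DCHS2 (−3.04 ± 0.50) was also lower, and CLSTN3 was higher (0.93 ± 0.11). In 501mel 9 were tested, 2 higher and 2 lower, beside 51.3% of all genes, the largest being CELSR3 at −0.64 ± 0.09, which was 0.031 without KO5.2. Of 7 desmosomal cadherins 2 were tested in each cell line, and DSG2 passed in 501mel (86.0 ± 0.23 to 64.3 ± 0.70 CPM).

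Nectins, the other adhesion molecules of the adherens junction, and afadin had 2 of 6 tested genes lower in SKmel147 (PVRL2 and PVR, −0.36 and −0.27), where 17.7% of all genes passed. In 501mel, where 51.3% of all genes passed, 3 of 5 were lower and 1 higher, led by PVRL1 (21.8 ± 6.42 to 6.24 ± 0.70 CPM, −1.77 ± 0.08) and PVR (−1.35 ± 0.07). Of 6 repressors of classical cadherin genes, SNAI2 (Slug) alone passed in either cell line, higher in SKmel147 (0.70 ± 0.09) and lower in 501mel (−0.32 ± 0.05). The 501mel value rests on KO1.8 (−0.58), since KO5.2 stood at 120.8 and 108.9 CPM, within the control range of 108.3 to 124.8 CPM (−0.06, adjusted p = 0.442). In SKmel147 NT was below Par in SNAI2 by −0.87 ± 0.13 (adjusted p = 0.00339). There SNAI2 stood at 60.4 and 58.2 CPM in Par, 36.7 and 28.2 in NT, and 102 and 93.4 in KO1.5. KO1.4 (62.8 and 66.5 CPM) and KO3.20 (54.9 and 58.6 CPM) stood near Par, so the higher KO mean rests on NT and KO1.5. Of 15 genes for CTCF, cohesin and their partners, 0 passed in SKmel147, beside 17.7% of all genes (edgeR quasi-likelihood test; 0 had an unadjusted p under 0.05 and DESeq2 called 0). In 501mel 5 were higher and 3 lower, beside 51.3% of all genes, and NIPBL, the cohesin loader, was at −0.31 ± 0.04 and STAG2, a cohesin subunit, at 0.35 ± 0.05 on the KO mean (−0.072 without KO5.2). Of 8 proteases that cut cadherins, 1 was higher and 3 lower in SKmel147, beside 17.7% of all genes, among them ADAM15 (−0.54 ± 0.13) and APH1A (−0.32 ± 0.07). In 501mel 4 were higher and 1 lower, beside 51.3%, and ADAM10 was among the higher (0.31 ± 0.04).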

How the data were processed

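Polyadenylated RNA was sequenced from 18 libraries. STAR 2.6.0 and featureCounts, with GRCh37 and hg19 as builds, come from the submitters' processing notes on the authors' steps. No source used here gives the annotation, the strand setting or the handling of reads with several matches. The deposited values are raw counts per gene symbol, 16749707 to 35670140 in a library. The SKmel147 table names its transduced control NTC where the titles have NT, and these were taken as the same line. Members and gene lists were chosen with earlier results of these data known. Members named were fixed by rule: CDH1 to CDH6, CDH11, CDH13, CDH15 and CDH19, those called in every KO line or above a log2 change of 1, the 3 highest per cell line, those with the smallest p between cell lines, and up to 4 called genes per list. Other members, such as CDH10, PCDH9, PCDHB3, PCDHB10, PCDHB14, PCDHB15 and PCDHB16, were picked with their values in view.

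Each cell line was fitted in R 4.3.3 with edgeR 4.0.16 (TMM scaling, filterByExpr by line, 1 coefficient per line, quasi-likelihood test, Benjamini-Hochberg adjustment over all genes tested, called at an adjusted p under 0.05). KO lines and control lines each had equal weight. The difference between cell lines and the comparison of controls came from a joint fit of all libraries. The test was checked on simulated counts. These had the same spread for all genes and no differences between lines beyond the planted KO changes. That check therefore does not cover differences between lines of the same kind, nor members with few counts. Symbols were matched to GENCODE 29 for length, GC content and chromosome only (35408 matched, 1334 through an older symbol), and its assembly differs from the named builds. Promoter windows are from RefSeq, where 65 members had one. The chi-square between both libraries of a line, divided by its degrees of freedom, was 15 to 39.2 (SKmel147) or 2.51 to 4.86 (501mel). Limits set from 3 counts cover counting error only, while the SEs also hold the spread between libraries that the fit estimated. Alternatives were DESeq2 1.42.0 (size factors, Wald test), no filter, either control alone, a GC and length correction, a replicate block, each library or KO line left out and the line as replicate.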

Additional observations from a re-analysis of the deposited data

Results flagged for a closer look

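The effect of the ARID2 KO on CDH19 differed between the cell lines by the test of the difference itself. The KO effect in SKmel147 minus that in 501mel was 1.76 ± 0.18 on the log2 scale (edgeR quasi-likelihood test on the joint fit, adjusted p = 2.38e-06), with CDH19 higher in all 6 KO libraries than in NT in SKmel147 and lower in all 4 KO libraries than in any control in 501mel. Leaving out each of the 18 libraries in turn gave 1.68 to 1.89. The KO1.5 library at 1.65 CPM lay below a Par library at 1.74 CPM, and against Par alone CDH19 was not called in SKmel147 (0.71, adjusted p = 0.0539). With lines as replicates the difference was again 1.76 and was not called (adjusted p = 0.119).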

How the results depend on the processing

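Of the named genes' values, 790 kept direction and call under the alternatives that left no library out and 143 lost the call. Those that turned were PCDHB14 against Par alone (−0.10), TYR against NTC alone (0.047), and, without KO5.2, PCDHGA12 (0.35), CELSR3 (0.031), FAT4 (0.59), MLLT4 (−0.17), RAD21 (−0.11) and STAG2 (−0.072). With the line as replicate, 0 members were called in SKmel147, 0 in 501mel and 0 between cell lines. Members differing between cell lines numbered 2 with the GC and length correction, with or without the block, and 4 with no filter. Members called in every SKmel147 KO line numbered 4 by DESeq2, 5 with the GC and length correction, 4 with that and the block, 4 against Par alone, 0 with even counts divided by 2, 3 with no filter, 6 without KO1.5 and 4 without KO3.20. In every 501mel KO line they numbered 2 by DESeq2, 2 against Par alone and 7 without KO1.8. NTC minus Par gave 1 by DESeq2, 4 with the GC and length correction and block, and 1 without KO5.2. Causes were not tested, though fewer samples or KO lines enter some fits.

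Leaving out each library in turn gave 11 to 16 members in SKmel147, 6 to 8 in 501mel, 55 to 63 between the controls, 1 to 2 between cell lines, 5 to 11 for NT minus Par, 0 to 2 for NTC minus Par, and 0 to 4 and 2 to 5 called in every KO line of SKmel147 and 501mel. CDH13 was called against NT alone (−0.34, adjusted p = 0.0278). PCDHB10 was not called without NT replicate 2 (0.39), nor PCDHB6 without Par replicate 1 (−1.37) or NT replicate 1 (−1.70).

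Replicate numbers did not pair the libraries: the differences between the libraries of a line correlated between lines at −0.267 to 0.324 in SKmel147 and −0.0251 to 0.138 in 501mel. With the replicate block 14 members were called in SKmel147 and 7 in 501mel, and CDH2 was not called (adjusted p = 0.0574). Members with few counts, such as PCDH1 in 501mel, PCDH20 and PCDHB6, are limited by depth, and most members were below the filter in 501mel.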
